A study of Mus musculus with 4 samples.

Results

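The 9 genes described here encode transcription factors and cofactors used as markers of cortical layers: *Cux1*, *Cux2*, *Pou3f2*, *Rorb*, *Bcl11b*, *Fezf2*, *Sox5*, *Tle4* and *Foxp2*. They were taken by name from the 32285 genes counted, by a rule that uses no measured value. The list itself was chosen with earlier results of these data known. Their levels were read in cells that carried at least 2 unique molecular identifiers (UMIs, each standing for 1 captured RNA molecule) of *Neurod2* and *Neurod6* together, and were set against the other cells of the same libraries. *Neurod2* and *Neurod6* encode basic helix-loop-helix factors of differentiating excitatory neurons of the dorsal telencephalon. Of 17623 cells that passed the filters, 814 met this gate and are called Neurod cells. All 9 genes were detected in them.

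The cells were tdTomato+ cells sorted from the telencephalon of C57BL/6 mice at postnatal day 5, after tamoxifen had been given to the dams at a midfetal stage. Control libraries were NestinCreERT2/tdTomato/*Chd8*+/+ and mutant libraries were NestinCreERT2/tdTomato/*Chd8*+/F, in which 1 allele of *Chd8*, the gene of a chromatin remodeling factor, carries floxed exons. Both genotypes therefore carried the Cre driver and the reporter and received tamoxifen. Recombination was driven by the *Nestin* promoter in neural stem and progenitor cells, to label those progenitors and their descendants. Cells with markers of microglia, mural cells and endothelial cells were also in the sort. There were 2 libraries per genotype, each pooled from 3 mice, so the spread between mice cannot be measured and the library is the replicate.

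In the developing cortex these factors divide projection neurons between layers. *Cux1*, *Cux2* and *Pou3f2* (also called *Brn2*) mark upper-layer neurons that project mainly within the cortex, and *Rorb* marks the thalamus-recipient middle layer. *Fezf2* and its downstream gene *Bcl11b* (*Ctip2*) specify subcerebral projection neurons of the deep layers, *Sox5* regulates the timing and fate of deep-layer neurons, and *Tle4* (a corepressor) and *Foxp2* mark corticothalamic neurons. Several of them have well-known roles elsewhere, for example *Bcl11b* and *Foxp2* in striatal projection neurons and *Sox5* in glial precursors.

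The libraries held 6107 to 7279 barcodes and 46274374 to 79328841 UMIs, and the median kept cell had 11497 to 11837.5 UMIs. Between 8 and 21 barcodes were shared by any pair of libraries, and 2 to 15 by any pair after filtering. The matrix headers name Cell Ranger 7.0.0 in both replicate 1 libraries and 5.0.1 in both replicate 2 libraries. *Xist*, the RNA of the inactive X chromosome, was at 0.149 and 0.153 UMIs per 1000000 UMIs of the summed cells (CPM) in the replicate 1 libraries and at 1633 and 1749 CPM in the replicate 2 libraries. *Xist* is made in female cells, while the paper states that its single-cell RNA sequencing used male mice. The replicate number thus coincides with the software version and with *Xist*, and so with the sex of the cells. These cannot be told apart as sources of a difference between replicates. Each genotype has 1 library of each kind, and values within each replicate number are given beside the comparison of genotypes. The level of *Chd8* in Neurod cells was 66.5 and 114 CPM in the controls and 89.5 and 121 CPM in the mutants, but reads from the 3′ end lie outside the deleted exons and do not check the deletion.

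The promoters of the 9 genes were compared for the E-box CAGATG, read on both strands (CATCTG on the other), a form of the motif bound by Neurod factors. The 250 bases before a RefSeq start, on GRCm38.p6, were found for 8 of the 9 genes, in 11 windows, and *Foxp2* had none. The motif was in 1 of the 11 member windows and in 14.4% of all 32851 windows. The single match lay before an internal start of *Cux2*, in a window inside the gene that overlaps an exon. It is shown in its 30-base stretch at chr5:122047887-122047916 (minus strand), with the motif, which begins 79 bases before that start, in capitals.
Cux2: gggaggggggctCATCTGaatcgatataaa
The upstream window of *Pou3f2* is shown because that gene has a single exon and no intron, a property that returns with the replicate difference. It covers chr4:22488367-22488616 (minus strand), lies outside the gene and holds no match.
Pou3f2: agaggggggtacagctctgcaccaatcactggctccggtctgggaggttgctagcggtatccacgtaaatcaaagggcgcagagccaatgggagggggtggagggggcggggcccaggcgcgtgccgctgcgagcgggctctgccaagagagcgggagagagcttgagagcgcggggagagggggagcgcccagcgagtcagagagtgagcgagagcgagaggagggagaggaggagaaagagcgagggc
A match describes these letters and is not evidence of binding, and the absence of a match says only that the letters are not in the window.

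The Neurod cells were 311, 109, 237 and 157 in control replicate 1, control replicate 2, mutant replicate 1 and mutant replicate 2, and values for the 4 libraries are given in this order throughout. Beside the gating genes they carried *Neurod1* at 682, 1502, 938 and 1254 CPM, *Tbr1*, a factor of early-born glutamatergic neurons, at 117, 133, 114 and 104 CPM, and *Slc17a6*, a vesicular glutamate transporter, at 109, 67.2, 94.0 and 47.8 CPM. *Slc17a7*, the other vesicular glutamate transporter, was at 8.05 CPM or less. Markers of the hippocampus were also high in them. *Prox1*, a factor of dentate granule neurons of the hippocampus, was at 345, 1043, 449 and 622 CPM, and *Zbtb20*, which is high in hippocampal neurons and in glia, at 5532, 6710, 6442 and 6939 CPM, while the later granule cell genes *C1ql2* and *Dsp* stayed at 4.02 CPM or less. Cells with at least 2 *Prox1* UMIs made up 45.3% of Neurod cells in control replicate 1 (exact 95% interval 39.7 to 51.1), 86.2% in control replicate 2 (78.3 to 92.1), 59.1% in mutant replicate 1 (52.5 to 65.4) and 77.7% in mutant replicate 2 (70.4 to 84.0). Both replicate 2 libraries therefore held relatively more *Prox1*-positive cells. These intervals cover counting error only.

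Between 12.9% and 16.5% of the Neurod cells also passed the gate of another class, most often those of astrocytes, oligodendrocyte precursors or ventral neurons. The gate edge was populated, with 283, 59, 143 and 59 cells at exactly 1 UMI of the gating genes, just outside, and 70, 27, 44 and 29 cells at exactly 2 UMIs, just inside. A Neurod cell had UMIs of a median of 4, 2, 4 and 3 of the 9 genes, and 5, 5, 5 and 8 cells had none.

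In Neurod cells against all other cells, 2 of the 9 genes were higher and 3 were lower. Among the 18372 genes tested, 20.8% were higher and 30.3% were lower, and the members' shares are to be read against these. The test was edgeR's quasi-likelihood test on UMIs summed per library and class, with the library as a term and Benjamini-Hochberg adjustment over all genes tested. A sum over cells cannot tell fewer expressing cells from less RNA per cell. Overlap of ranges, here and below, was read for the members only. The share of all genes without overlap was not counted.

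*Fezf2* was higher in Neurod cells. Its level was 22.6, 59.3, 36.7 and 58.3 CPM in Neurod cells and 12.6, 14.3, 10.4 and 11 CPM in the other cells. Every library was higher in Neurod cells and the ranges did not overlap, with a log2 fold change of 1.81 (SE 0.23, adjusted p = 0.000339). *Bcl11b* was at 77.2, 54.5, 33.9 and 57.3 CPM against 48.7, 19.9, 38.4 and 23.7 CPM. It was higher in 3 of 4 libraries, with overlapping ranges and a log2 fold change of 0.81 (SE 0.23, adjusted p = 0.0181). This call was lost without control replicate 2 (log2 0.63, adjusted p = 0.0604) and without mutant replicate 2 (log2 0.67, adjusted p = 0.0735).

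*Rorb*, *Sox5* and *Foxp2* were lower in Neurod cells in all 4 libraries. *Rorb* was at 141, 57.7, 137 and 40.2 CPM against 303, 166, 344 and 143 CPM, without overlap (log2 -1.37, SE 0.13, adjusted p = 9.17e-05). *Sox5* was at 195, 34.8, 236 and 40.2 CPM against 369, 123, 401 and 114 CPM (log2 -1.12, SE 0.18, adjusted p = 0.00118). *Foxp2* was at 51.2, 3.95, 36.4 and 6.54 CPM against 109, 21.2, 88.8 and 22.8 CPM (log2 -1.32, SE 0.18, adjusted p = 0.000539). The ranges of *Sox5* and *Foxp2* overlapped across libraries because both classes were low in replicate 2.

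The remaining members were not called. *Cux1* had 174, 81.4, 131 and 73.9 CPM in Neurod cells against 160, 142, 146 and 113 CPM (log2 -0.29, adjusted p = 0.17), and was called lower without control replicate 1 (log2 -0.46, adjusted p = 0.0252). *Cux2* had 69.9, 7.11, 38.0 and 10.1 CPM against 26.9, 12.6, 34.4 and 14.0 CPM (log2 0.40, adjusted p = 0.340). It was higher in both replicate 1 libraries and lower in both replicate 2 libraries, and *Pou3f2* had the same order, at 248, 39.5, 189 and 74.9 CPM against 164, 126, 153 and 136 CPM (log2 -0.23, adjusted p = 0.597). *Tle4* had 127, 92.5, 131 and 55.3 CPM against 108, 82.1, 118 and 68.4 CPM (log2 0.12, adjusted p = 0.433).

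**Figure D1:**
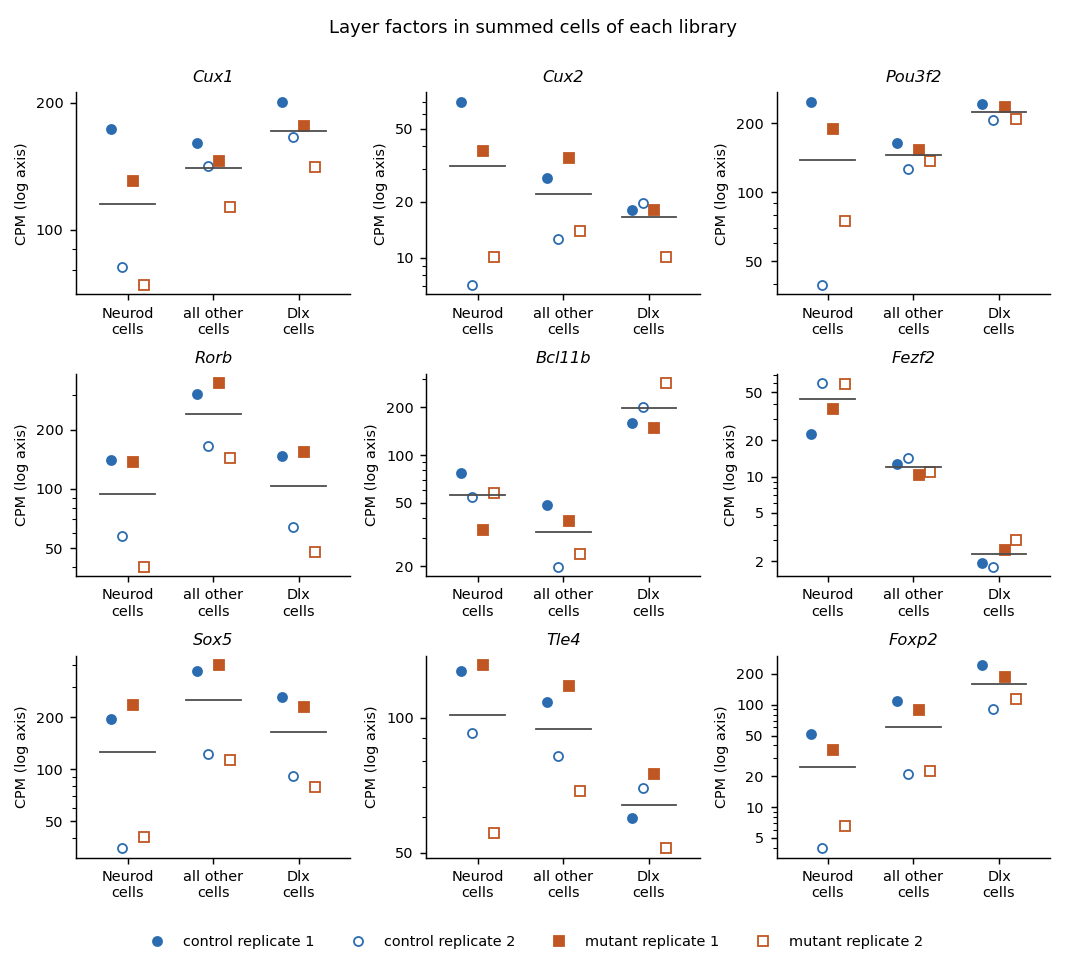
Levels of the 9 genes in CPM (log axis) in Neurod cells, Dlx cells and all other cells, with 1 point per library and the mean as a bar. *Fezf2* lies higher in Neurod cells than in either comparison class in all 4 libraries, and *Bcl11b* and *Foxp2* lie highest in Dlx cells.

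Other genes of the layer programmes were counted beside the members, in lists chosen with earlier results of these data known. *Bhlhe22* and *Tbr1* were also among the markers used to check the Neurod gate, so their excess gives no separate support. Of 11 further upper-layer genes, all tested, 5 were higher and 1 was lower in Neurod cells, with a median log2 difference of 0.69 against -0.13 over all genes. Among them *Bhlhe22*, a repressor of projection neurons, differed by log2 5.43 (adjusted p = 1.17e-07), the netrin receptor *Unc5d* by 2.67 (adjusted p = 0.000449) and the adhesion molecule *Mdga1* by 2.34 (adjusted p = 1.10e-05). *Inhba*, an activin subunit, was not called (log2 1.92, adjusted p = 0.0679). Of 13 further deep-layer genes, all tested, 7 were higher and 3 lower, with a median of 0.72. *Tbr1* differed by log2 5.09 (adjusted p = 2.32e-07), the secreted neurexophilin *Nxph3* by 3.51 (adjusted p = 0.000590) and the calmodulin-binding *Pcp4* by 2.67 (adjusted p = 1.73e-06), while *Etv1*, a factor of pyramidal tract neurons also found in other lineages, was lower (log2 -1.88, adjusted p = 7.90e-05).

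Dlx cells, which carried at least 2 UMIs of *Dlx1*, *Dlx2* and *Dlx5* and under 2 of the Neurod pair, were the other neuronal class of the sort and numbered 3262. *Dlx* genes encode homeodomain factors of GABAergic neurons from the ventral telencephalon. Of the 9 genes, 2 were higher in Neurod cells and 5 were lower, where 23% of the 12726 genes tested were higher and 21.4% were lower.

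*Fezf2* had 1.92, 1.80, 2.46 and 3 CPM in Dlx cells, so that it was higher in Neurod cells in every library and without overlap (log2 3.91, SE 0.21, adjusted p = 1.51e-06). *Bcl11b* went the other way, at 159, 199, 148 and 282 CPM in Dlx cells, all above every Neurod value (log2 -1.83, SE 0.18, adjusted p = 6.21e-05). *Foxp2* did likewise, at 243, 90.7, 187 and 115 CPM in Dlx cells (log2 -2.77, SE 0.25, adjusted p = 3.27e-05). *Bcl11b* was thus higher in Neurod cells than in all other cells pooled, while the Dlx cells among the latter carried more.

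*Tle4* was at 59.8, 69.6, 74.7 and 51.1 CPM in Dlx cells and was higher in Neurod cells in 4 of 4 libraries (log2 0.64, SE 0.14, adjusted p = 0.00477). *Cux1* was at 201, 166, 176 and 141 CPM in Dlx cells and was lower in Neurod cells in 4 of 4 libraries (log2 -0.65, SE 0.13, adjusted p = 0.00285). *Pou3f2*, at 242, 207, 235 and 208 CPM in Dlx cells, was also called lower in Neurod cells (log2 -0.89, SE 0.30, adjusted p = 0.0383), although control replicate 1 was above. That call was lost with DESeq2 (adjusted p = 0.0877), with a minimum of 10 counts in every sum (0.0602), without Neurod cells of mixed identity (0.0805), and without control replicate 2 (0.101) or mutant replicate 2 (0.176). *Sox5*, at 263, 91.6, 228 and 79.1 CPM in Dlx cells, was lower (log2 -0.59, SE 0.18, adjusted p = 0.0249), although mutant replicate 1 was above, a call lost with a gate of 1 UMI (0.0710) and without control replicate 2 (0.0731) or mutant replicate 2 (0.112). *Rorb* was not called, at 147, 64.2, 153 and 47.6 CPM in Dlx cells (log2 -0.20, adjusted p = 0.0671), nor was *Cux2*, at 18.1, 19.8, 18.2 and 10.0 CPM (log2 0.95, adjusted p = 0.0676). *Cux2* was called higher in 5 alternatives and *Rorb* lower in 3.

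Both lists were also counted in this comparison. Of the further upper-layer genes 10 were tested, of which 6 were higher and 1 lower (median log2 1.62), and of the 13 deep-layer genes 8 were higher and 3 lower (median 2.35), against a median of -0.017 over all genes. The largest differences were those of *Bhlhe22* (log2 6.93, adjusted p = 1.78e-07), *Lhx2* (3.53, 6.74e-07), *Unc5d* (3.20, 4.48e-05) and *Mdga1* (2.77, 2.32e-06) among upper-layer genes, and of *Tbr1* (6.70, 1.14e-07), *Crym* (4.72, 0.000381), *Nxph3* (4.36, 0.000821) and *Etv1* (-3.60, 1.39e-06) among deep-layer genes.

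Set across the 6 gated classes with 20 cells or more in each library, each of the 9 genes had its own order of levels. These are descriptions of mean ± SD over 4 libraries. *Fezf2* was highest in Neurod cells (44.2 ± 17.8 CPM), above mural cells (17.1 ± 12.9) and astrocytes (14.3 ± 2.23), whose ranges overlapped, and then Dlx cells (2.29 ± 0.55). The range of Neurod cells overlapped that of mural cells because 31.9 CPM was reached there in control replicate 1. Cells that passed no gate are not among the 6 classes. Their *Fezf2* was at 33.1, 58.1, 43.3 and 51.1 CPM, within the range of the Neurod cells. *Bcl11b* was highest in Dlx cells (197 ± 60.8), then in Neurod cells (55.7 ± 17.7) and oligodendrocyte precursors (17.0 ± 5.67), with no overlap between neighbours. *Foxp2* ran from Dlx cells (159 ± 69.5) over oligodendrocyte precursors (62.8 ± 40.2), mural cells and astrocytes to Neurod cells (24.5 ± 23.1) and, lowest, microglia (0.56 ± 0.69).

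*Rorb* was highest in astrocytes (455 ± 247), clear of Dlx (103 ± 55.1) and Neurod cells (93.9 ± 52.4), which overlapped. *Sox5* was highest in oligodendrocyte precursors (406 ± 271), followed with overlap by mural cells (359 ± 329), astrocytes (277 ± 172), Dlx cells (166 ± 93.8) and Neurod cells (127 ± 104), while microglia were far lower (4.30 ± 3.45). Mural cells were above astrocytes in only 2 of 4 libraries, at 692, 72.4, 592 and 78.7 CPM against 419, 134, 432 and 122 CPM. Some other neighbouring pairs in these orders also kept the order of their means in only 2 of 4 libraries. *Cux2* was highest in oligodendrocyte precursors (65.7 ± 25.4) and next in Neurod cells (31.3 ± 29.3), with overlap. *Pou3f2* was highest in Dlx cells (223 ± 18.1), clear of astrocytes (161 ± 19.1), which overlapped Neurod cells (138 ± 97.1). *Cux1* differed little, from 171 ± 25.1 CPM in Dlx cells to 106 ± 16.5 in mural cells, and every neighbouring pair overlapped. *Tle4* was highest in microglia (172 ± 52.2) and ran over oligodendrocyte precursors (105 ± 25.4), Neurod cells (102 ± 35.4) and astrocytes (100 ± 27.0) to Dlx cells (63.8 ± 10.5) and mural cells (52.6 ± 33.0). Of 45 neighbouring pairs in these orders, the ranges of 9 did not overlap. With 6 classes the gene of most similar pattern is weakly determined. The best match by Pearson's r of log2(CPM + 1), searched among 10456 genes, was *Cxxc5* for *Fezf2* (r = 0.989), *Prag1* for *Bcl11b* (0.998), *Pfkm* for *Rorb* (0.986), *Mrps11* for *Sox5* (0.996), *Arfgef1* for *Cux2* (0.996), *Ppa1* for *Pou3f2* (0.999), *Dyrk1a* for *Cux1* (0.950), *Esco1* for *Tle4* (0.989) and *Cops3* for *Foxp2* (0.996).

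**Figure D2:**
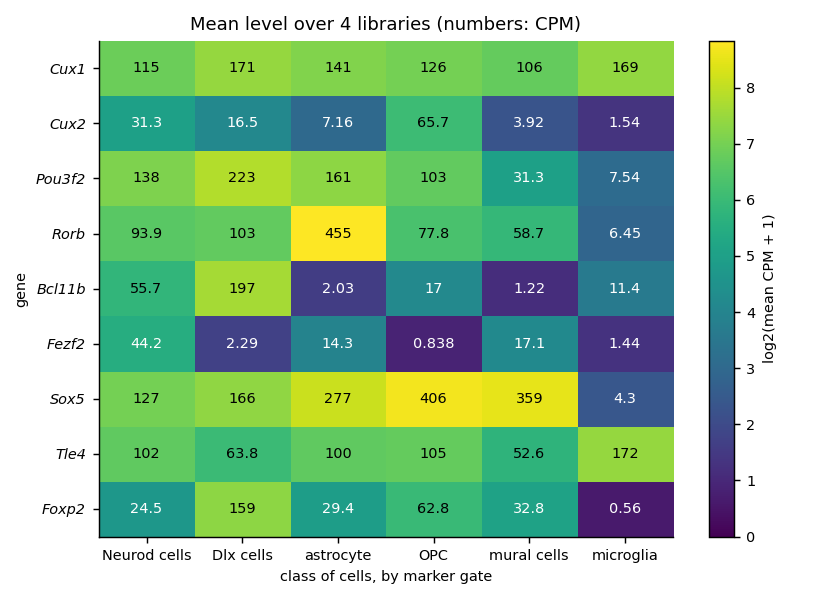
Mean level of each of the 9 genes over 4 libraries in 6 gated cell classes, on a log scale of CPM. Among these classes *Fezf2* is highest in Neurod cells, *Bcl11b*, *Foxp2* and *Pou3f2* in Dlx cells, *Rorb* in astrocytes and *Sox5* and *Cux2* in oligodendrocyte precursors. Cells that passed no gate are not shown.

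Detection per cell was counted after each cell had been thinned to 5000 UMIs, which left 758 Neurod cells and dropped 56. A UMI of *Tle4* was present in 36.1 ± 8.64% (SD, n = 4 libraries) of Neurod cells, of *Cux1* in 34.5 ± 9.78%, of *Sox5* in 31.7 ± 19.2%, of *Pou3f2* in 25.5 ± 13.9%, of *Rorb* in 24.1 ± 8.66%, of *Fezf2* in 17.6 ± 7.07%, of *Bcl11b* in 16.3 ± 3.54%, of *Cux2* in 9.73 ± 8.2% and of *Foxp2* in 6.88 ± 5.66%. Without thinning the means were 58.7, 56.1, 47.0, 37.7, 40.5, 32.2, 25.3, 16.6 and 12.4%. Microglia served as the class that should lack most of these genes, at a median of 7002 to 12225.5 UMIs against 10662 to 12517 in Neurod cells. There the thinned shares were 0.452 to 1.91% for 7 genes, all below the mean in Neurod cells, but 53.9% for *Cux1* and 54.1% for *Tle4*, so these cells give no background for that pair.

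Pairs of the 9 genes were then read in the same Neurod cells. Cells with a *Cux2* UMI numbered only 104, 5, 52 and 10. In them *Fezf2* was at 0 to 20.4 CPM, against 29.5 to 62.8 CPM in cells without, lower in 4 of 4 libraries. In cells with a *Fezf2* UMI, *Cux2* was at 0 to 11.2 CPM, against 11.8 to 88.2 CPM in cells without. *Cux2* was higher in cells with a *Pou3f2* UMI (14.2 to 102 CPM) than in cells without (0 to 19.5 CPM), in 4 of 4 libraries. *Pou3f2* was higher in cells with a *Cux2* UMI in 3 of 4. Control replicate 2 went the other way, at 14.0 against 41.0 CPM. *Fezf2* was lower in cells with a UMI of *Pou3f2* in 4 of 4 libraries, as it was with *Cux2*. The upper-layer gene *Cux1* did not share this. *Fezf2* was higher in cells with a *Cux1* UMI in 4 of 4 libraries, at 23.3 to 74.0 CPM against 20.4 to 54.4 CPM. *Cux1* was higher with a *Fezf2* UMI in 1 of 4. *Pou3f2* was higher with a *Bcl11b* UMI in 4 of 4, and *Bcl11b* with a *Pou3f2* UMI in 2 of 4. Not every pair of the 9 genes is given here. *Cux2*, *Pou3f2*, *Cux1* and *Fezf2* also differed between Neurod cells with and without *Prox1*, as given below. There *Cux2* and *Pou3f2* were lower, and *Fezf2* higher, in the cells with *Prox1*. The part of that split in the pairs was not tested.

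Among deep-layer genes the pattern was less uniform. *Bcl11b* was at 17.2 to 39.6 CPM in cells with a *Fezf2* UMI and at 42.8 to 92.4 CPM in cells without, lower in 4 of 4 libraries, and likewise 13.9 to 55.9 CPM against 40.6 to 125 CPM for cells with and without a *Sox5* UMI. *Tle4* was higher with *Fezf2* in 4 of 4 libraries, at 56.3 to 154 CPM against 54.5 to 126 CPM, but *Fezf2* was higher with a *Tle4* UMI in only 2 of 4. These values are descriptions: the cells of a library share their source, and depth differed between cells with and without a UMI. In control replicate 1 the median was 15189.5 UMIs with *Fezf2* and 11376 without. For *Cux2* it was 10538.5 with and 12584 without.

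The cells with at least 2 *Prox1* UMIs (141, 94, 140 and 122 cells, called *Prox1*-high) and those with 0 (155, 11, 81 and 24 cells) were then compared within the Neurod cells, with the library as a term. Of the 9 genes, 1 was higher in *Prox1*-high cells and 4 were lower, where 4.2% of 11412 genes tested were higher and 5.31% lower. The *Prox1*-high cells were deeper, with a median of 10858.5 to 13854 UMIs against 8714 to 10229, and sums were scaled for that.

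The upper-layer genes *Cux2*, *Pou3f2* and *Cux1* did not overlap between these cells. *Cux2* was at 5.74, 2.74, 9.49 and 0.63 CPM in *Prox1*-high cells against 146, 46.6, 108 and 63.9 CPM in *Prox1*-0 cells (log2 -4.21, SE 0.29, adjusted p = 1.02e-06), with only 12, 3, 20 and 1 UMIs behind the *Prox1*-high values. *Pou3f2* was at 69.9, 33.7, 60.7 and 26.5 CPM against 447, 93.2, 468 and 337 CPM (log2 -2.80, SE 0.21, adjusted p = 1.91e-06). *Cux1* was at 101, 73.0, 104 and 60.6 CPM against 262, 140, 189 and 138 CPM (log2 -1.07, SE 0.14, adjusted p = 0.000279). For each of them every *Prox1*-high library lay under every *Prox1*-0 library, though the share of all genes for which this holds was not counted.

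*Fezf2* was the member that was higher in *Prox1*-high cells, at 34.0, 62.9, 45.6 and 60.6 CPM against 8.25, 15.5, 13.7 and 28.4 CPM, with no overlap (log2 1.76, SE 0.24, adjusted p = 0.000323). Only 15, 2, 12 and 8 UMIs lay behind its *Prox1*-0 values. *Fezf2*, which was called higher in Neurod cells than in all other cells, was thus higher still in the Neurod cells that carried a dentate granule factor. *Sox5* was called lower, at 152, 36.5, 199 and 30.9 CPM against 248, 15.5, 312 and 78.1 CPM (log2 -0.66, SE 0.18, adjusted p = 0.0342). Control replicate 2 went the other way, on only 2 *Sox5* UMIs in its *Prox1*-0 cells. The call was lost with DESeq2 (0.345) and without control replicate 1 (0.182), mutant replicate 1 (0.232) or mutant replicate 2 (0.111). *Rorb* (log2 -0.57, adjusted p = 0.192), *Bcl11b* (-0.50, 0.109), *Tle4* (0.35, 0.265) and *Foxp2* (-0.67, 0.127) did not pass, and *Rorb*, *Bcl11b* and *Foxp2* passed in 2 or 3 alternatives each. Of the other upper-layer genes 10 were tested, with 1 higher and 5 lower (median log2 -0.69 against 0.031 over all genes), the largest being *Inhba* (-4.39, adjusted p = 0.00154), *Pou3f1* (-4.28, 6.62e-07), *Unc5d* (-2.50, 1.58e-06) and *Nectin3* (-1.97, 0.000278). Of the 13 deep-layer genes 1 was higher and 5 lower (median -0.48). These included *Nxph3* (-3.71, 0.00422), *Ldb2* (-3.49, 2.44e-06) and *Crym* (-1.33, 0.0349) lower and *Zfpm2* (2.48, 8.73e-08) higher.

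**Figure D3:**
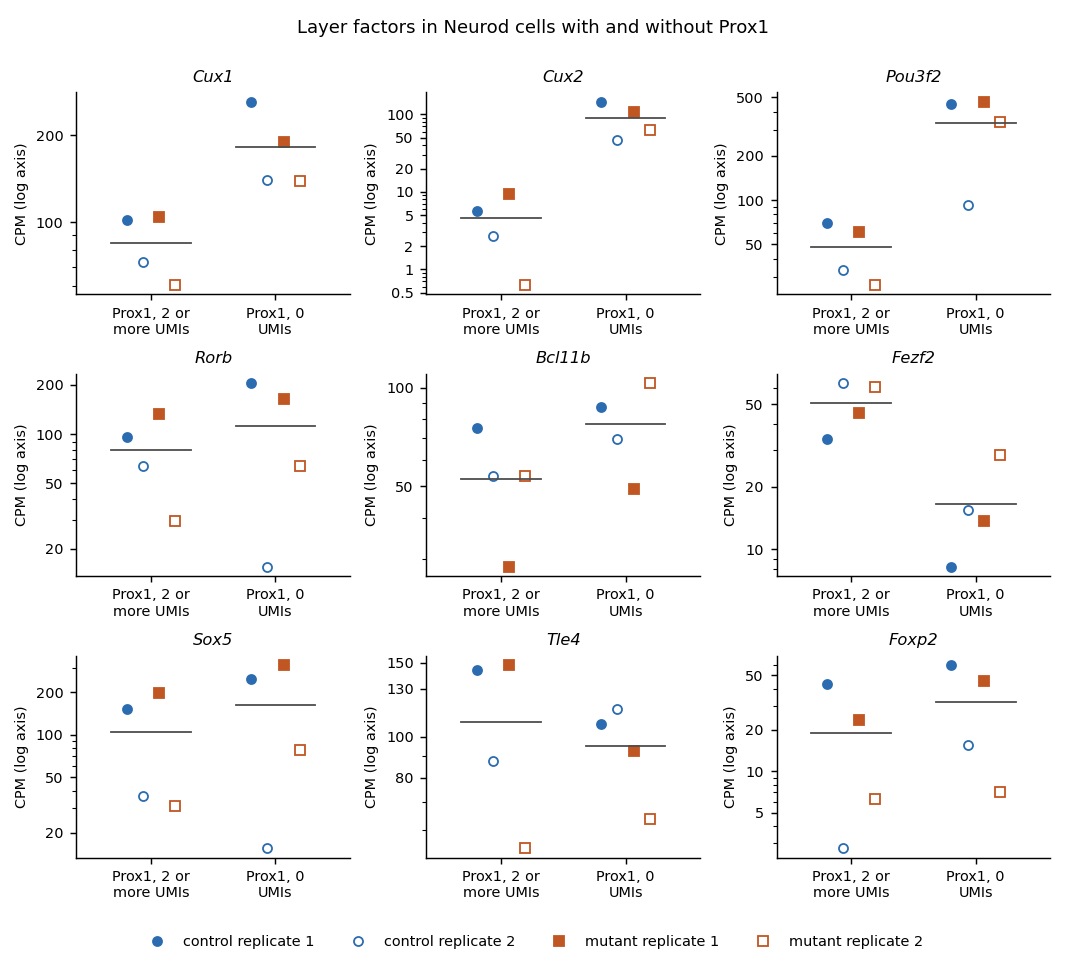
Levels of the 9 genes in CPM (log axis) in *Prox1*-high and *Prox1*-0 Neurod cells, with a point per library and the mean as a bar. *Cux2*, *Pou3f2* and *Cux1* fall and *Fezf2* rises from *Prox1*-0 to *Prox1*-high cells in all 4 libraries.

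In Neurod cells 7 of the 9 genes were lower in replicate 2 than in replicate 1 in both genotypes. The share of all genes lower in both genotypes was not counted, so the 7 cannot be set against it. In Neurod cells the log2 ratio of replicate 2 to replicate 1 was -3.40 in controls and -2.31 in mutants for *Foxp2*, -3.13 and -1.82 for *Cux2*, -2.62 and -1.32 for *Pou3f2*, -2.46 and -2.52 for *Sox5*, -1.27 and -1.75 for *Rorb*, -1.08 and -0.81 for *Cux1*, and -0.46 and -1.23 for *Tle4*. *Fezf2* went up, by 1.35 and 0.65, and *Bcl11b* was mixed, at -0.49 and 0.74. The median over all genes was -0.051 and -0.0034. These ratios come from 1 library a side and carry no test. The 2 largest rest on few UMIs in replicate 2. In the control and mutant there, *Foxp2* had 5 and 13 UMIs and *Cux2* had 9 and 20.

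*Sox5*, whose introns span 939177 bases, was also lower in replicate 2 in Dlx cells (-1.51 and -1.52) and in astrocytes (-1.64 and -1.82). In astrocytes *Foxp2*, with 524283 intronic bases, had ratios of -1.91 and -1.80. *Cux1*, with 299332, had only -0.063 and -0.22 there, and *Rorb*, with fewer (169516), had -1.16 and -1.62. *Pou3f2*, which has 0 intronic bases, was somewhat lower in replicate 2 in Dlx cells (-0.22 and -0.17) and astrocytes (-0.37 and -0.18). It was higher in oligodendrocyte precursors (0.37 and 0.67). In mural cells, where its level was low, *Pou3f2* had ratios of -2.66 and -3.42, and in microglia, where it was lower still, -3.23 and 3.15. The share of *Prox1*-high cells among Neurod cells was higher in replicate 2. The part of intron counting, of the *Prox1* share and of the samples in these differences was not tested.

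**Figure D4:**
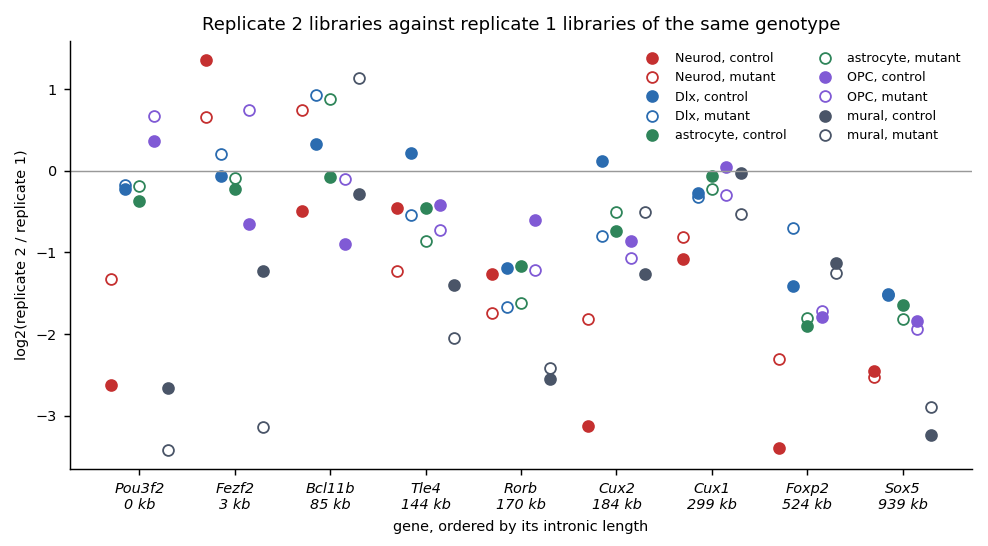
Log2 ratio of replicate 2 to replicate 1 for each of the 9 genes, ordered by intronic length (given in kb under each name), in 5 cell classes and for each genotype. *Sox5*, with the longest introns, is lower in replicate 2 in every class shown. *Pou3f2*, without introns, is lower in Neurod and mural cells, lower by less in Dlx cells and astrocytes, and higher in oligodendrocyte precursors.

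Mutant and control Neurod cells did not differ in any of the 9 genes by the test. None of the 9 members and none of 12022 genes tested was called (0%), with 47 genes at an unadjusted p under 0.05. DESeq2 also called none, with 30 genes at an unadjusted p under 0.05. With the replicate number as a term, which stands for the software version and *Xist* as well, 99 genes were called (0.823%), and again 0 of the 9 members. Without that term, with 2 libraries per genotype, every member's adjusted p was 0.9999 and the standard errors were wide: *Bcl11b* -0.56 (SE 0.39), *Cux1* -0.34 (0.52), *Tle4* -0.26 (0.50), *Fezf2* 0.22 (0.57), *Rorb* -0.18 (0.75), *Pou3f2* -0.15 (0.97), *Sox5* 0.23 (1.14), *Cux2* -0.73 (1.17) and *Foxp2* -0.42 (1.30). With the term the standard errors were smaller, from 0.18 (*Cux1*) to 0.30 (*Foxp2*). The largest differences in that fit were those of *Bcl11b* (-0.65, SE 0.22, adjusted p = 0.217) and *Cux2* (-0.62, SE 0.28, adjusted p = 0.593). The missed threshold does not show that the genotypes are alike.

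Within a replicate number the mutant over control log2 differences were as follows. In replicate 1 and replicate 2 they were -0.41 and -0.14 for *Cux1*, -0.86 and 0.45 for *Cux2*, -0.39 and 0.91 for *Pou3f2*, -0.033 and -0.51 for *Rorb*, and -1.17 and 0.071 for *Bcl11b*. They were 0.68 and -0.022 for *Fezf2*, 0.27 and 0.21 for *Sox5*, 0.040 and -0.73 for *Tle4*, and -0.48 and 0.61 for *Foxp2*. Only *Cux1*, *Rorb* and *Sox5* had the same sign in both. The replicate 2 differences of *Foxp2* and *Cux2* rest on few UMIs, 5 control and 13 mutant for *Foxp2* and 9 and 20 for *Cux2*. Markers of other cells also differed between the libraries. In Neurod cells the 8 astrocyte genes summed to 786, 723, 1369 and 1111 CPM. The 7 genes of oligodendrocyte precursors summed to 312, 408, 432 and 417 CPM. Both sums were higher in each mutant library than in each control library. The 7 endothelial genes summed to 2.43, 3.95, 117 and 18.1 CPM, and the 7 microglial genes to 49.0, 2.37, 121 and 3.02 CPM. Of the endothelial list, 4, 4, 0 and 0 genes were at 0. The part of the cells behind these markers in the differences was not tested.

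**Figure D5:**
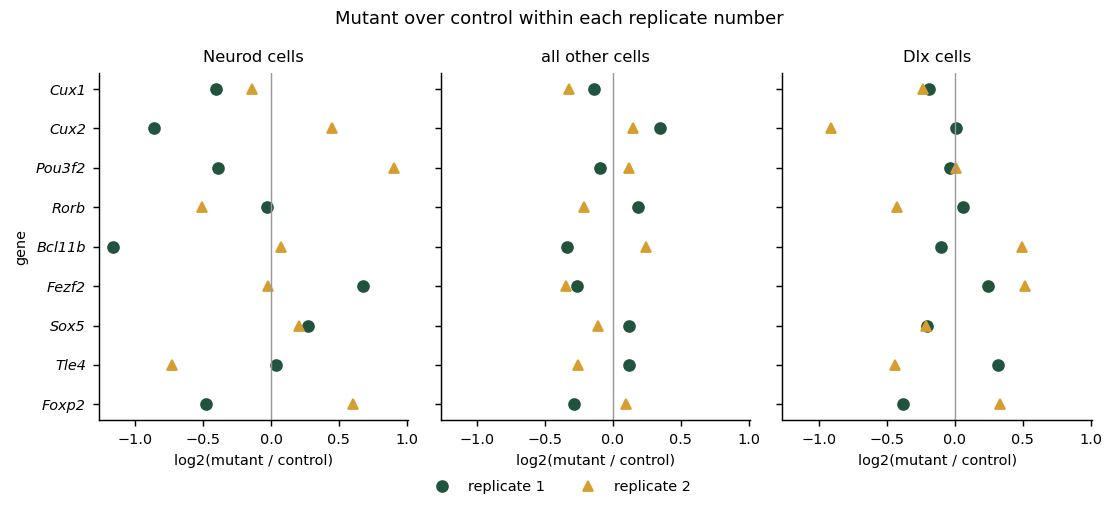
Log2 difference of mutant over control for each of the 9 genes within replicate 1 and within replicate 2, in Neurod cells, Dlx cells and all other cells. Of the 9 genes in Neurod cells, 3 have the same sign in both replicates, and the points scatter on both sides of 0.

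In Dlx cells 0 of 9 members and 0 of 13571 genes were called (0%; 6 at an unadjusted p under 0.05, and none called by DESeq2, with 14), and with the replicate number as a term 25 genes (0.184%) and 0 of 9 members. In all other cells 0 of 9 and 0 of 19672 were called (0%; 15, and none by DESeq2, with 36). The difference of the genotype effect between Neurod and other cells gave 0 of 9 and 0 of 18372 (0%; 467, and none by DESeq2, with 177). In Dlx cells the 2 within-replicate differences had the same sign for *Cux1* (-0.19 and -0.23), *Sox5* (-0.20 and -0.21) and *Fezf2* (0.24 and 0.52), and opposite signs for *Bcl11b* (-0.10 and 0.50), *Rorb* (0.057 and -0.42), *Tle4* (0.32 and -0.44) and *Foxp2* (-0.38 and 0.34). For *Pou3f2* the differences were -0.038 and 0.012, and for *Cux2* 0.0085 and -0.91. The *Fezf2* differences rest on only 26 control and 30 mutant UMIs in replicate 1, and on 4 and 6 in replicate 2.

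The share of Neurod cells among all kept cells was 4.56 ± 1.26% in controls and 4.49 ± 0.42% in mutants (SD, n = 2 libraries each), which differed by less than the spread between libraries (exact two-sided permutation test, p = 1, where the smallest p this design allows is 0.333). The shares with at least 2 UMIs of *Prox1* and of *Eomes*, a factor of intermediate progenitors, gave exact two-sided permutation p = 1 and 0.667 for genotype.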

How the data were processed

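Single-cell libraries were made with the 10x Chromium 3′ v3.1 chemistry from tdTomato+ cells. Per the labels, the authors mapped the reads to mm10, and their processing notes name Cell Ranger 3.0, while the matrix headers name 7.0.0 and 5.0.1. Whether introns were counted is not given in the sources used here. The deposited values are raw UMI counts per gene and barcode. The cell filter took barcodes of 2000 to 40000 UMIs that showed 1000 or more genes, with a limit of 10% on mitochondrial UMIs. No doublet caller was run, and Neurod cells that also passed the gate of another class were removed as an alternative. In that alternative, other cells that passed several gates stayed in the comparison with all other cells.

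Counts were summed per library and class, given per 1000000 UMIs (CPM), and tested with edgeR 4.0.16 (R 4.3.3), glmQLFit and glmQLFTest with TMM scaling and filterByExpr, over all genes, at an adjusted p under 0.05. The scripts were tested on simulated data. Neurod cells passed at least 2 UMIs of the gate, and other classes had under 2 UMIs of every other gate. Comparisons within libraries carried a library term. The library is the replicate. Without the replicate term, p-values for genotype measure the spread in level between pools. Those of comparisons within libraries measure how the difference between classes varied from library to library. Single-sample shares have exact Clopper-Pearson 95% intervals. Log2 differences within a replicate used log2(CPM + 1). The matrices had 0 columns without a sample.

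The named genes are the 9 members, the gating and targeted genes, the 11 further upper-layer and 13 further deep-layer genes (up to 4 named per list and comparison, by the largest fitted change), and the genes of most similar pattern. The members and lists were chosen with earlier results of these data known. Alternatives were DESeq2 1.42.0, filters on low counts, a 5% mitochondrial limit, gates of 1 or 5 UMIs or a share of UMIs, removal of Neurod cells of mixed identity, a replicate block and leaving out each library. A planned split of the Neurod cells by another gene is not reported here, nor is that gene among the upper-layer genes. The fits in *Prox1*-high cells only were added after seeing the data.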

Additional observations from a re-analysis of the deposited data

Results flagged for a closer look

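*Sox5* was flagged because its genotype difference went in opposite directions in both neuronal classes. As the mean of 2 replicates, mutant over control was 0.24 on the log2 scale in Neurod cells and -0.21 in Dlx cells, and in each class both replicates had the same direction (0.27 and 0.21 in Neurod cells, -0.20 and -0.21 in Dlx cells). In *Prox1*-high Neurod cells the replicates differed in direction (0.38 and -0.23), as they did in all other cells (0.12 and -0.11). All 9 genes were searched for such opposite directions, in Neurod cells against Dlx cells and against all other cells. The difference between Neurod and Dlx cells was not tested. The tested difference of the genotype effect between Neurod and all other cells had an adjusted p of 1 for *Sox5*.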

How the results depend on the processing

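Against all other cells, 4 to 6 of the 9 members were called when any library was left out. Over all genes, 7664 of 17611, 8032 of 18296, 8209 of 17755 and 7733 of 17975 tested were called, with the libraries left out in the usual order. *Fezf2*, *Rorb* and *Sox5* kept their direction in every alternative, as did *Foxp2* except with at least 10 counts in every sum, where it was not tested. With that filter 4 of 6 members tested were called against Dlx cells, where 4051 of all 9010 genes tested were called. Between *Prox1*-high and *Prox1*-0 cells 2 of 3 members tested were called, where 277 of all 2607 genes were. Fewer members could thus be called. The difference of the genotype effect between classes gave 0 to 1 members with any library left out: *Pou3f2*, at log2 1.51 (adjusted p = 0.00176) without control replicate 1, but -0.90, -0.46 and 0.69, not called, without control replicate 2, mutant replicate 1 and mutant replicate 2. The difference in the share of Neurod cells, -0.070 percentage points, became 0.777 with the 5% mitochondrial limit and 0.180 with a gate of 5 UMIs, and ran from -0.960 to 0.820 with any library left out. The cause was not tested.

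Single members that changed sign were not past the threshold. *Rorb* against Dlx cells was 0.015 with a gate of 1 UMI, and *Bcl11b* in the *Prox1* split 0.27 with that gate. Against other cells *Cux2* ran from -0.18 to 0.62 and *Pou3f2* from -0.58 to 0.11 over the libraries left out. For mutant against control in Neurod cells the ranges were -0.82 to 0.32 (*Cux1*), -2.01 to 1.75 (*Cux2*), -0.98 to 1.73 (*Pou3f2*), -1.34 to 0.61 (*Rorb*), -0.34 to 1.04 (*Fezf2*), -1.56 to 1.98 (*Sox5*), -1.02 to 0.25 (*Tle4*) and -2.16 to 2.43 (*Foxp2*). In *Prox1*-high cells only, an alternative added after seeing the data, *Cux2* was 0.24 and *Rorb* 0.023.

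The replicate numbers could not be shown to pair the libraries, since only 2 pairs exist and the labels do not say what the number marks. Deviations from the group means correlated with r of 0.82 in Neurod cells, 0.89 in other cells and 0.83 in Dlx cells. With the replicate block, 99 genes were called in Neurod cells (31 higher, 68 lower), 25 in Dlx cells and 0 in other cells, with 0 of 9 members in each. In that fit *Pou3f2* was 0.075, *Bcl11b* -0.65 (adjusted p = 0.217), and *Cux2* 0.30 in *Prox1*-high cells, where 0 genes were called without the block and 39 with it. No filter gave 7 genes for genotype in Neurod cells and 67 for the interaction, which had 98, 69 and 118 without control replicate 1, mutant replicate 1 and mutant replicate 2. Over all genes, calls against other cells were 9378 of 18372 tested, and 5617 of 9491 with the 10-count filter. Against Dlx cells there were 5645, and 3761 without mutant replicate 1. In the *Prox1* split 1085 of 11412 tested became 679 (DESeq2), 277 of 2607 tested (10 counts), 3815 (gate of 1), and 513 and 603 without control or mutant replicate 1.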
